A study of Rattus norvegicus with 6 samples.

Results

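Fatty acid binding proteins, the nuclear receptor PPAR gamma and 3 of its best-known partners in lipid handling were followed in the rat mammary tumour cell line LN4D6, with and without transfected CREB3L1. The 10 genes were Fabp1, Fabp2, Fabp3, Fabp4, Fabp5, Fabp7, Pparg, Plin2, Cd36 and Lpl, out of 14217 genes named on the array. Every probe set annotated with exactly 1 of these symbols was taken, which gave 11 probe sets of 31042, 2 of them for Plin2. The genes were chosen by the difference between the groups, which was already known, Fabp4 and Fabp5 having been seen among the strongest falls. Their values are therefore a description and carry no test.

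The series has 6 Affymetrix 3' arrays of total RNA, 3 from untransfected LN4D6 cells and 3 from LN4D6 cells transfected with CREB3L1, all grown as the same line with no other treatment named. CREB3L1 is a transcription factor anchored in the endoplasmic reticulum membrane and set free by cleavage. The labels name no vector-transfected group and do not say whether the transfected cells were a clone or a pool. Separate cultures for the arrays of a group are not stated either, so the spread between them may be technical. The labels number no replicates, and the replicate numbers used here follow sample order within a group and pair nothing. Values are log2 RMA expression values, differences are CREB3L1 minus untransfected on that scale with a standard error from limma, and a log2 value of 5 is taken as the background level.

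Fatty acid binding proteins are small cytosolic carriers that hold a fatty acid in a barrel-shaped pocket and are named for the tissues where they abound. Lipoprotein lipase frees fatty acids from circulating triglyceride, CD36 helps them across the plasma membrane, and the carriers take them to storage, oxidation or the nucleus. PPAR gamma is a receptor for fatty acids and their derivatives that pairs with RXR and is the master regulator of fat cells. Fabp4, Cd36, Lpl and Plin2 are textbook PPAR gamma target genes, and FABP4 and FABP5 are known to carry ligands to PPAR receptors.

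CREB3L1 replicate 3 stood apart in the control probe sets: for Gapdh, signal at the 3' end minus that at the 5' end was 4.77, against -0.16 to -0.10 on the other 5 arrays. This array correlated with the others at 0.984 to 0.989 across probe sets, and the others among themselves at 0.996 to 0.999. At a limma adjusted p below 0.05, the share of probe sets called higher with CREB3L1 was 0.425% and that called lower 0.963%, against 1.54% and 2.44% without this array. Values without it are given for Fabp4, Pparg and Plin2, and for the genes described later where a call or a count of calls changed. The 1 probe set of Creb3l1 lay below background, at 3.36 ± 0.02 and 3.39 ± 0.03 (SD, n = 3 each). Since the labels do not describe the construct, which this rat probe set may not read, the value is no check of the groups. Of 15 mammary epithelial markers, the keratin genes Krt8, Krt5 and Krt14 were above background in both groups, and the remaining 12, among them Krt18, Krt19, Epcam, Cdh1 and the milk protein genes Csn2, Csn1s1, Wap and Lalba, were not.

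RefSeq promoter windows (assembly GRCr8) were matched by symbol for 7 of the 10 genes, 9 windows in all. Fabp4, Fabp5 and Lpl had no entry. All windows of the receptor, and of Plin2 and Cd36, whose values were lower in all CREB3L1 arrays, are shown, so that the letters can be read beside the values below. Each line gives the 250 bases before an annotated start, 5′ to 3′ on the gene's strand, with motif matches in capitals.
Pparg, upstream start, GRCr8 chr4:150096808-150097057, plus strand: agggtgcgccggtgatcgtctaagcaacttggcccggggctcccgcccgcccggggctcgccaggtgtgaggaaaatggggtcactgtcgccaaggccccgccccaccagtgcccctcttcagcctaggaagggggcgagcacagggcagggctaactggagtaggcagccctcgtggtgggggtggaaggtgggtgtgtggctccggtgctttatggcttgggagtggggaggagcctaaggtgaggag
Pparg, downstream start, GRCr8 chr4:150154522-150154771, plus strand: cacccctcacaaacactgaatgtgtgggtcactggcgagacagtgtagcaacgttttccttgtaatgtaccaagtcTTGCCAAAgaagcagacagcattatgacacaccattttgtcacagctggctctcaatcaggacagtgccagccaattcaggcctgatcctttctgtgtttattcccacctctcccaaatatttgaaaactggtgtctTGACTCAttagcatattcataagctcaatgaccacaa
Plin2, upstream start, GRCr8 chr5:106229019-106229268, minus strand: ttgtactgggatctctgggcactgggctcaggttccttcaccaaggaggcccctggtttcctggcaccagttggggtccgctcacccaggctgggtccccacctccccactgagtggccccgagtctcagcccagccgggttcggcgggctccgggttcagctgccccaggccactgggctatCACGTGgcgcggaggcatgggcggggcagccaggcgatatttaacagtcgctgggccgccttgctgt
Plin2, downstream start, GRCr8 chr5:106228538-106228787, minus strand: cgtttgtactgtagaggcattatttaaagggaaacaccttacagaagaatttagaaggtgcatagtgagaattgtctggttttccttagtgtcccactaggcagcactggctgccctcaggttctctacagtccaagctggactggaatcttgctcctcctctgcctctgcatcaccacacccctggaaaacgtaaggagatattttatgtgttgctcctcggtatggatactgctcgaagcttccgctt
Cd36, GRCr8 chr4:18246332-18246581, plus strand: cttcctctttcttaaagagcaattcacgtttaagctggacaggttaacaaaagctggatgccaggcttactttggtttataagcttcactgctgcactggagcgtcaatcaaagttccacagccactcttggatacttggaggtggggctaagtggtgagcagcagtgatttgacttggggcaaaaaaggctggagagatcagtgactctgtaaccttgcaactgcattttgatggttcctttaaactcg

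A search for 8 motifs covered both strands, except the TATA box, which was read on the gene's strand. The motifs were the PPAR response element (the next motif repeated after any 1 base), AGGTCA (a nuclear receptor site), TTGCNNAA (C/EBP), TGACGTCA (the cyclic AMP response element), TGACGTGG (an unfolded protein response element), CACGTG (an E-box), TGANTCA (AP-1) and TATAAA. The downstream Pparg window held TTGCCAAA, a C/EBP match, starting 174 bases before the start, and the AP-1 match TGACTCA at 37 bases. The upstream Plin2 window held the E-box CACGTG at 67 bases. Of all 33469 windows of this length, 9.22% held a C/EBP match, 6.34% an AP-1 match and 5.59% the E-box. Among the windows not shown, that of Fabp1 held AGGTCA on the opposite strand (77 bases before the start), the C/EBP match TTGCTGAA (184 bases) and TATAAA (40 bases), and that of Fabp7 held AGGTCA on the opposite strand (196 bases). AGGTCA was in 14.1% and TATAAA in 8.06% of all windows. The upstream Pparg window, the downstream Plin2 window and those of Cd36, Fabp2 and Fabp3 held none of the 8 motifs. Only exact matches to these letters were counted. The exact PPAR response element, cyclic AMP response element and unfolded protein response element were in none of the 9 windows. They were in 0.0508%, 1.59% and 0.52% of all windows. The Fabp1 window came within 1 base of the PPAR response element on the opposite strand. It held TGACCT, then 1 base, then TGGCCT where a full match has TGACCT.

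The untransfected cells held Fabp4 and Fabp5 transcripts well above background, and the CREB3L1 cells had neither above it. Pparg stayed above background in both groups but was 2.77-fold lower with CREB3L1, and Plin2 was lower on both of its probe sets. The other carriers, Fabp1, Fabp2, Fabp3 and Fabp7, and Lpl were below background in all 6 arrays. Of the 11 probe sets, 6 had all CREB3L1 arrays below all untransfected arrays, 0 had all of them above, and 5 overlapped. Over all probe sets on the array, 7.75% were lower and 6.52% higher without overlap. Without CREB3L1 replicate 3, 8 probe sets were lower and 0 higher without overlap, against 14.1% and 12.3% of all probe sets. The added probe sets were those of Fabp1 and Fabp3, below background. Since this contrast chose the genes, nothing is read from these counts.

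**Figure D1:**
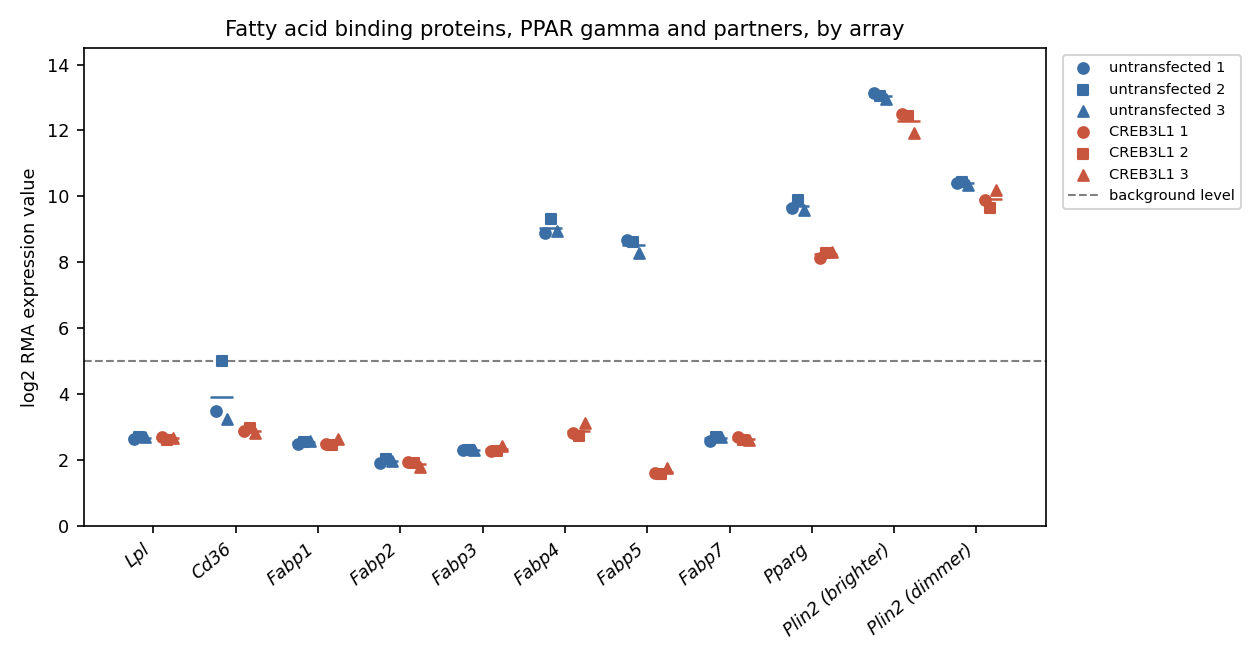
Log2 RMA expression values of the 11 probe sets on each of the 6 arrays (points, 1 shape per replicate), with group means as short bars and the background level of 5 as a dashed line. Fabp4 and Fabp5 lie between 8.28 and 9.30 in untransfected and between 1.56 and 3.11 in CREB3L1 arrays, while Pparg and both Plin2 probe sets are lower but stay above the line.

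At the cell surface, Lpl encodes the lipase that splits circulating triglyceride. Its probe set read 2.62, 2.70 and 2.70 in the untransfected arrays and 2.70, 2.60 and 2.65 in the CREB3L1 arrays. These values lie below background and overlap. Cd36 encodes the fatty acid translocase. Its probe set read 3.46, 5.00 and 3.24 in untransfected and 2.87, 2.97 and 2.80 in CREB3L1 arrays. All CREB3L1 arrays were below all untransfected ones, but only untransfected replicate 2 reached the background level, and no fold is given. The difference was -1.02 ± 0.48, and -0.47 without untransfected replicate 2.

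A further probe set is annotated to 2 symbols, Cd36 and Cd36l1, and is outside the rule, so its signal is not assigned to either gene. It read 6.67, 7.81 and 7.68 in untransfected and 3.39, 3.35 and 3.24 in CREB3L1 arrays. The untransfected arrays were all above background and the CREB3L1 arrays all below it, which makes the signal at least 5.23-fold lower (difference -4.06 ± 0.31). It was singled out after its values were seen.

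Fabp4 encodes the carrier of fat cells and macrophages. Its probe set read 8.89, 9.30 and 8.95 in untransfected arrays, and 2.82, 2.72 and 3.11 in CREB3L1 arrays. The groups were far apart and each was tight, with a range of 0.42 among the untransfected and 0.39 among the CREB3L1 arrays. The difference was -6.17 ± 0.15, and -6.28 ± 0.13 without CREB3L1 replicate 3.

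Fabp5 encodes the epidermal carrier, which is also found in many epithelia and tumours. Its values were 8.67, 8.61 and 8.28 in untransfected and 1.59, 1.56 and 1.76 in CREB3L1 arrays. The difference was -6.88 ± 0.12, and between -7.00 and -6.81 whichever array was left out. As the CREB3L1 values of both genes are below background, the size of these differences rests on background signal, and against the background level the falls are at least 16.6-fold for Fabp4 and at least 11.5-fold for Fabp5. In arrays of whole cultures, fewer cells with a transcript and less transcript per cell cannot be told apart.

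The remaining carriers gave a flat signal. Fabp3, the heart carrier, which is also known from mammary gland, read 2.28 to 2.30 in untransfected and 2.27 to 2.41 in CREB3L1 arrays. Fabp1, the liver carrier, was at 2.53 ± 0.04 and 2.52 ± 0.09 (SD, n = 3 each), and Fabp2, the intestinal carrier, at 1.96 ± 0.07 and 1.88 ± 0.08. Fabp7, the brain carrier, was at 2.65 ± 0.07 and 2.62 ± 0.06. The groups overlapped for all 4 genes, with differences of -0.08 to 0.02. All these values lie below background, and no difference in transcript level is read from them.

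Pparg, the receptor itself, read 9.64, 9.89 and 9.59 in untransfected and 8.12, 8.29 and 8.30 in CREB3L1 arrays. The groups did not overlap, and CREB3L1 replicate 3 lay 0.10 above the mean of the other CREB3L1 arrays. The difference was -1.47 ± 0.10, and -1.50 ± 0.11 without that array. The use of the different starts shown above was not measured.

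Plin2 encodes the protein that coats lipid droplets in most cell types. Its brighter probe set read 13.13, 13.05 and 12.95 in untransfected and 12.50, 12.44 and 11.92 in CREB3L1 arrays. Its dimmer probe set read 10.42, 10.43 and 10.35, and 9.87, 9.66 and 10.19. All CREB3L1 arrays were lower on both, by 0.76 ± 0.17 on the brighter and 0.49 ± 0.14 on the dimmer probe set. CREB3L1 replicate 3 was the lowest array on the brighter probe set and the highest CREB3L1 array on the dimmer, by -0.54 and 0.42 relative to the mean of the other CREB3L1 arrays. Without it the differences were closer together, at -0.58 ± 0.06 and -0.63 ± 0.07. The part of the 3' to 5' signal gap of that array in these values was not tested.

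**Figure D2:**
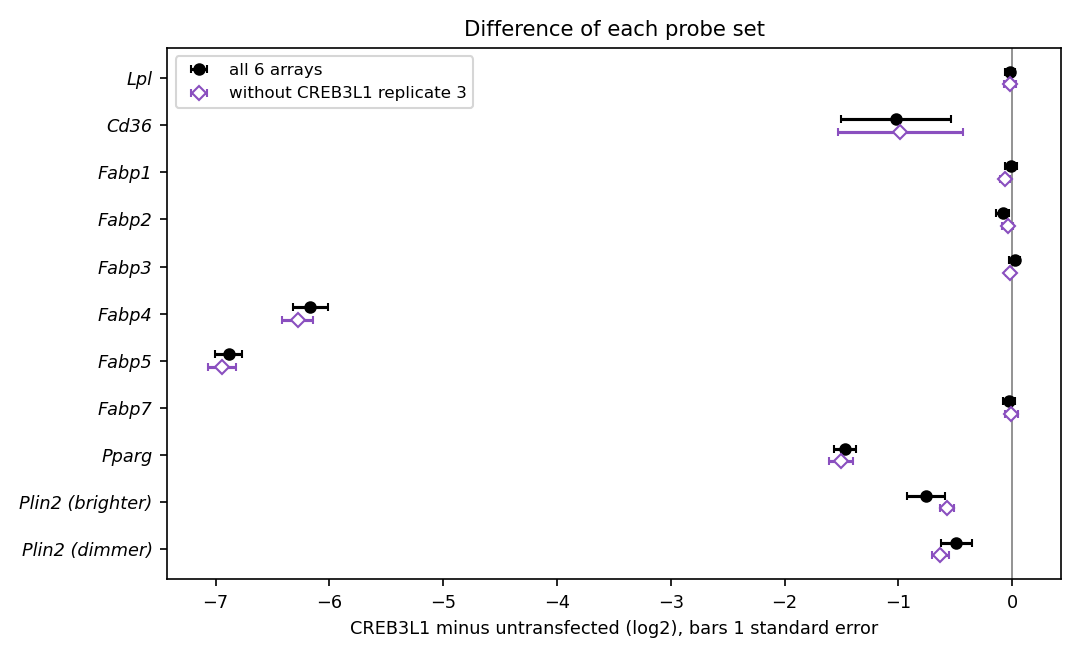
CREB3L1 minus untransfected on the log2 scale for each probe set, with all 6 arrays (filled circles) and without CREB3L1 replicate 3 (open diamonds), bars 1 standard error. Fabp4 and Fabp5 lie beyond -6, Pparg near -1.5, and the Plin2 probe sets at -0.76 and -0.49 with all arrays and at -0.58 and -0.63 without that array.

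Among untransfected arrays, replicate 2 was the highest for Fabp4, Pparg, Cd36, the dimmer Plin2 probe set and the probe set shared with Cd36l1. It was also the highest for Fabp2 and Lpl, both below background. Replicate 1 was the highest for Fabp5 and the brighter Plin2 probe set. Replicate 3 was the highest for Fabp1, Fabp3 and Fabp7, all below background. The widest spread among untransfected arrays was that of Cd36, with a range of 1.76, against at most 0.42 for each of the other 10 probe sets.

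The profiles of Fabp4 and Fabp5 were set against 7713 other genes above background by the root mean square difference, over 6 arrays, of the value minus the untransfected mean. Nearest to Fabp4 were Moxd1 (0.23), Fgfbp1 (0.24) and Prps2 (0.27). Nearest to Fabp5 were Fgfbp1 (0.37), Prps2 (0.50) and Fabp4 (0.53). Moxd1, Fgfbp1 and Prps2 differed by -6.12, -6.42 and -6.32 between the groups. The ranking thus mostly reads the size of the contrast that chose Fabp4 and Fabp5. Fgfbp1 and Prps2, like Fabp4 and Fabp5, averaged below background in the CREB3L1 arrays, where the distance between profiles rests on background signal, while Moxd1 averaged 5.49 there.

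Fabp4 and Fabp5 are neighbours in the rat genome (RefSeq gene order, assembly GRCr8), in a cluster with other carriers of the family, with 6 annotated genes between them. The 15 annotated genes on each side of either gave 36 others, of which 12 were measured and 5 were above background. None of the 12 passed the test over all probe sets with 6 arrays (limma, Benjamini-Hochberg adjusted), and 1 had an unadjusted p below 0.05. Over all genes on the array, 0.577% rose and 1.52% fell by this test, and 1996 of 14217 had an unadjusted p below 0.05. The family members of the cluster, Fabp9, Pmp2 and Fabp12, were below background in both groups, with differences of 0.03, 0.01 and 0.01. Tpd52 differed by -0.40 ± 0.14 (limma adjusted p = 0.399) and the inositol monophosphatase gene Impa1 by -0.16 ± 0.07 (limma adjusted p = 0.624). A second Tpd52 probe set gave -0.72 ± 0.40 (limma adjusted p = 0.806). Without CREB3L1 replicate 3, the first Tpd52 probe set passed the test (-0.55, limma adjusted p = 0.0102), where 3.70% of all genes fell. The neighbours' median difference was 0.01, against -0.01 over all genes.

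**Figure D3:**
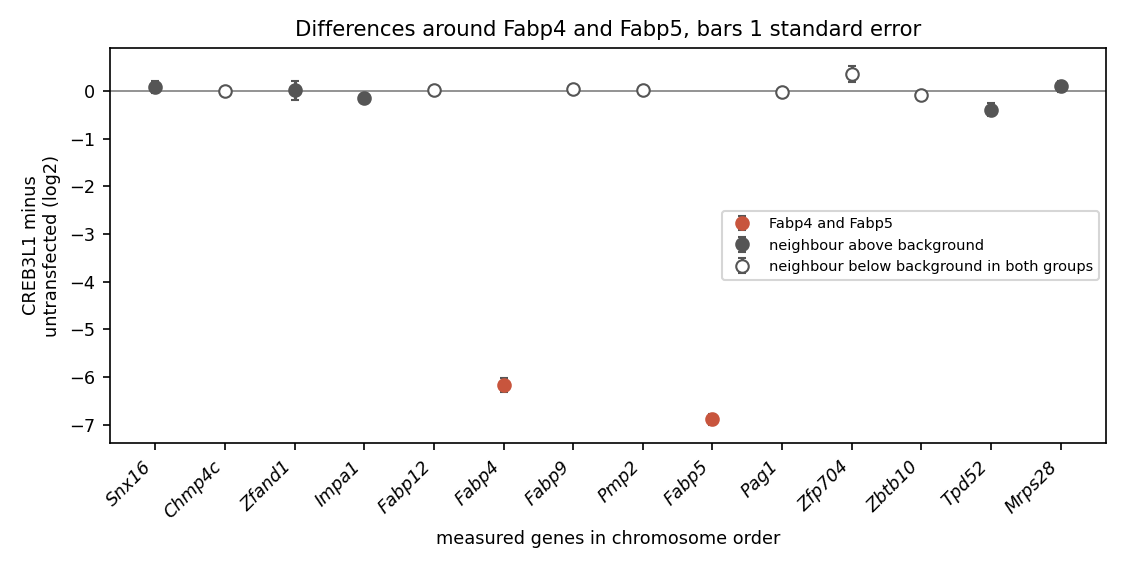
CREB3L1 minus untransfected (log2, bars 1 standard error) for the measured genes around Fabp4 and Fabp5, evenly spaced in chromosome order. Fabp4 and Fabp5 stand at -6.17 and -6.88, and the 12 neighbours between -0.40 and 0.35, with 7 of the 12 below background in both groups.

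Further genes of lipid handling were taken from lists drawn up by pathway, with earlier results of these data known, and with 1 probe set a gene. Of the lipid binding relatives of the carriers 8 were measured, and 0 rose and 0 fell (limma). An unadjusted p below 0.05 was found for 1 of the 8, against 1996 of all 14217 genes. Besides the cluster genes, Rbp2, a cellular retinol binding protein, read 10.45, 10.60 and 10.55 in untransfected and 9.33, 9.47 and 8.10 in CREB3L1 arrays. The groups did not overlap, and CREB3L1 replicate 3 was the lowest array (-1.57 ± 0.38, limma adjusted p = 0.193). Without that array it fell by 1.14 (limma adjusted p = 0.00302), and Crabp2, a retinoic acid binding protein, rose by 0.64 (limma adjusted p = 0.0263). Over all genes 2.02% rose and 3.70% fell in that setting. Rbp7 was below background in both groups (-0.10 ± 0.08, limma adjusted p = 0.9998).

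Of 23 receptors, coregulators and adipogenic factors measured, 0 rose and 1 fell, against 0.577% and 1.52% of all genes. The gene that fell was Klf5, a zinc finger factor that acts early in fat cell formation, from 11.64 ± 0.11 to 11.13 ± 0.05 (SD, n = 3 each; difference -0.51 ± 0.07, limma adjusted p = 0.0371). A second Klf5 probe set gave -0.69 ± 0.11 (limma adjusted p = 0.0648), and a further 2 were below background in both groups. A mean-variance trend ended the call, as did the mean of all probe sets, and leaving out any 1 of CREB3L1 replicate 1, CREB3L1 replicate 2, untransfected replicate 2 or untransfected replicate 3. Ppard, which encodes the PPAR delta receptor, was at 8.71 ± 0.06 and 8.66 ± 0.24, a difference of -0.05 ± 0.13 (limma adjusted p = 0.9998), and -0.19 without CREB3L1 replicate 3 (limma adjusted p = 0.146). Ppara, Rxra and Cebpa were below background in both groups, and Cebpb, a driver of Pparg in fat cells, was at 12.73 ± 0.20 and 12.52 ± 0.12. Cebpd read 4.19 and 4.63 in CREB3L1 replicates 1 and 2 and at most 2.23 in the other 4 arrays, all below background. Without CREB3L1 replicate 3 it was the 1 gene of this group past the threshold as higher (2.31, limma adjusted p = 0.00343; over all genes 2.02% were higher in that setting), a call that rests on values below background. The median difference was -0.04. Cebpd has 3 probe sets and Ppard 2, and only the brightest of each is given.

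Among 17 genes of fatty acid entry and activation, 1 rose and 0 fell, against 0.577% and 1.52% of all genes, with a median of 0.01. Acsl5, an acyl-CoA synthetase, rose from 11.59 ± 0.07 to 11.98 ± 0.03 (SD, n = 3 each; 0.38 ± 0.05, limma adjusted p = 0.0279), and its second probe set gave 0.45 ± 0.11 (limma adjusted p = 0.183). Its call held without CREB3L1 replicate 3 and with quantile normalisation, and was lost with each of the other 5 arrays left out and under the remaining settings. Scarb1, a scavenger receptor related to CD36, was at 8.76 ± 0.10 and 8.83 ± 0.20. Of 13 partners and relatives of lipoprotein lipase, 0 rose and 0 fell (limma), and the median was -0.01. None of them had an unadjusted p below 0.05, against 1996 of all 14217 genes. The smallest p belonged to the protease gene Furin (0.50 ± 0.20, limma adjusted p = 0.526; 0.30 without CREB3L1 replicate 3) and the lipoprotein receptor gene Lrp1 (-0.52 ± 0.30, limma adjusted p = 0.825). Gpihbp1, which anchors the lipase on endothelium, and its inhibitor gene Angptl4 were below background in both groups.

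Of 24 measured genes of lipid droplets and triglyceride turnover, Plin4, Dgat2, Hilpda and Plin3 fell and 0 rose, against 1.52% and 0.577% of all genes. Without CREB3L1 replicate 3, 5 fell, these 4 and Dgat1, against 3.70% of all genes. Of the 24, 11 were below background in both groups. The median of the list was -0.03, against -0.01 over all genes.

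Plin4, a perilipin of fat cell droplets, read 5.46, 5.74 and 6.05 in untransfected and 2.90, 3.12 and 2.93 in CREB3L1 arrays. It went from just above background to below it, at least 1.68-fold lower (limma adjusted p = 0.00346). Dgat2, which catalyses the last step of triglyceride synthesis, read 9.68, 9.47 and 9.08 against 7.13, 7.05 and 7.60. It fell 4.45-fold (-2.15 ± 0.22, limma adjusted p = 0.0173), and a second probe set gave -3.07 ± 0.51 (limma adjusted p = 0.0751). Dgat1, its unrelated counterpart, read 9.48, 9.58 and 9.64 against 9.08, 9.05 and 7.93 (-0.88 ± 0.33, limma adjusted p = 0.472) and passed the test without CREB3L1 replicate 3 (-0.50, limma adjusted p = 0.0161). Hilpda, an inhibitor of triglyceride breakdown that is also hypoxia-inducible, fell from 12.97 ± 0.05 to 12.07 ± 0.07 (-0.90 ± 0.05, limma adjusted p = 0.00267). Plin3, the widely expressed perilipin, fell from 12.36 ± 0.09 to 11.88 ± 0.04 (-0.48 ± 0.06, limma adjusted p = 0.0251). The Plin3 call ended with a mean-variance trend and with any of the 5 arrays besides CREB3L1 replicate 3 left out, and the Dgat2 call without CREB3L1 replicate 1, CREB3L1 replicate 2, untransfected replicate 1 or untransfected replicate 2. Plin1, Cidec and the hormone-sensitive lipase gene Lipe were below background in both groups.

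Fatty acid oxidation genes were lower at the median, while no single gene passed the test with 6 arrays. Of 23 measured genes 0 rose and 0 fell (limma), and 11 had an unadjusted p below 0.05, against 1996 of all 14217 genes. The median difference was -0.29 against -0.01 over all genes. All CREB3L1 arrays were below all untransfected arrays for 12 of the 23, against 10.7% of all genes, and above them for 0, against 9.00%. By the same measure 8 of 24 droplet genes were lower and 0 higher, and 7 of 23 receptors and coregulators lower and 1 higher. Lower and higher were 2 and 1 of 17 entry genes, 0 and 1 of 13 lipase partners, and 1 and 0 of 8 lipid binding relatives. Below background in both groups were 7 of the 23 oxidation genes, against 6503 of all 14217 genes. Among the oxidation genes the smallest p belonged to Hadhb and Acaa2, which act in the last steps of each cycle. They differed by -0.25 ± 0.04 and -0.95 ± 0.21 (limma adjusted p = 0.0707 and 0.153). A second Acaa2 probe set, near background, gave 0.22 ± 0.28. Without CREB3L1 replicate 3, 5 genes passed the threshold as lower, Hadhb, Hadha, Acaa2 and Acadm (limma adjusted p = 0.0267, 0.0247, 0.0159 and 0.0302) and Ucp2, whose call rests on values below background in both groups. In that setting 3.70% of all genes fell and the list's median was -0.26. Hadha has 3 probe sets, and only the brightest is given.

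**Figure D4:**
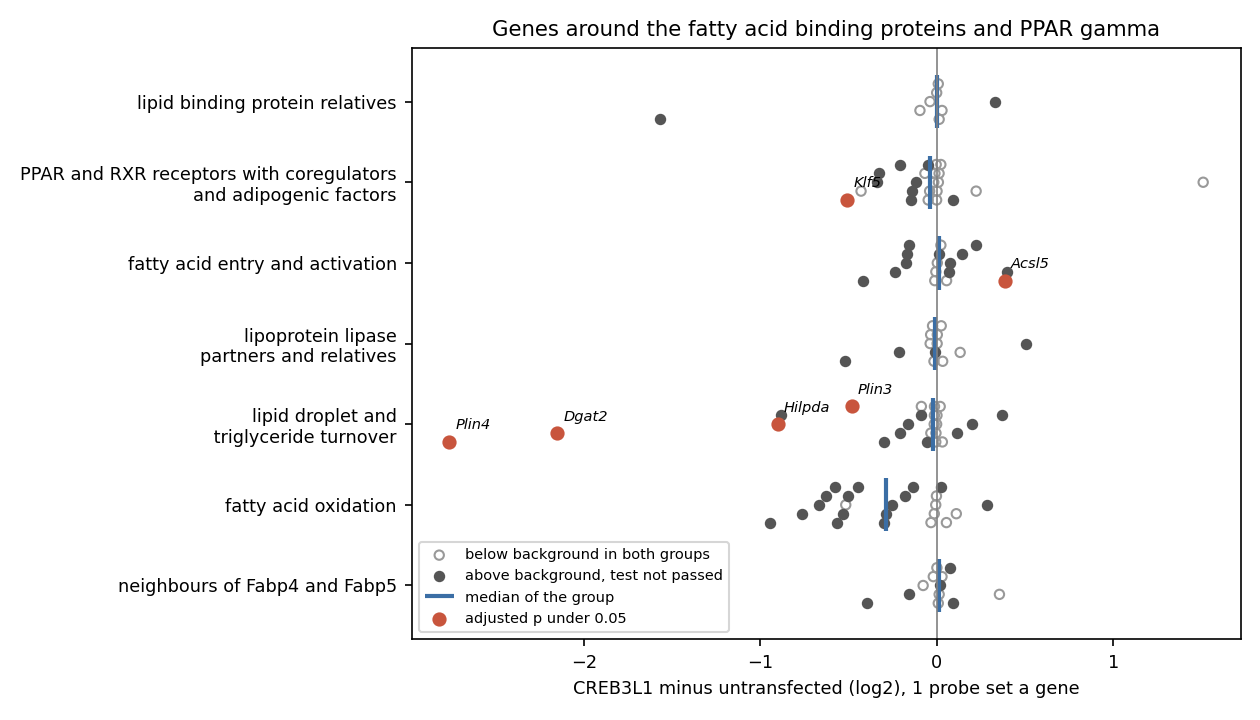
CREB3L1 minus untransfected (log2, 1 probe set a gene) for the measured genes of 6 lists on lipid handling and for the neighbours of Fabp4 and Fabp5, with list medians as blue bars. Filled red points passed the test, with Plin4, Dgat2, Hilpda, Plin3 and Klf5 lower and Acsl5 higher, and the oxidation genes are centred at -0.29.

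Markers of cells known for Fabp4 were read in both groups. All 9 measured fat cell markers, Adipoq and Lep among them, and all 7 measured endothelial markers were below background in both. Of 10 macrophage markers, Csf1r and Cd14 were above it in both groups and 8, with Ptprc and Adgre1, were not. On the log2 scale the summed signal of the macrophage markers was 11.04 to 11.39 in untransfected and 10.78 to 11.13 in CREB3L1 arrays. The macrophage sum was mostly that of Cd14, at 11.06 ± 0.19 and 10.77 ± 0.24 (SD, n = 3 each). Of 8 fibroblast markers, Col3a1 was above background in both groups and 7 were not. The fibroblast sum was 14.45 to 14.57 in untransfected and 14.61 to 14.88 in CREB3L1 arrays, and was almost wholly the signal of Col3a1, at 14.53 ± 0.07 and 14.72 ± 0.14 (limma adjusted p = 0.591). The sum of mammary epithelial markers was 16.06 to 16.26 and 15.97 to 16.39.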

How the data were processed

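Total RNA of 6 samples was hybridised to Affymetrix 3' arrays. Per the submitters' processing notes, the authors used RMA and Partek 6.6, and they deposited 1 table of expression values. The deposited values run from 0.268 to 16.9 and were taken as log2 from that range. Neither the base of the log nor probe-level settings are stated. Groups follow the label naming what each sample was transfected with. Replicates are numbered here by sample order within a group, since the labels number none, and nothing was paired. At most 10 values were identical between any 2 arrays. The number of arrays limits the precision.

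Of 31099 probe sets, 57 controls were left out. The platform annotation held by GEO (it may be out of date) gave 20826 probe sets 1 symbol, 436 several and 9780 none. A gene's probe set was the one with the highest mean over 6 arrays. The table has no detection calls, and a log2 value of 5 served as background. "At least" folds are the brighter group's mean against it.

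The comparison used limma 3.58.1 under R 4.3.3 (1 mean per group, eBayes, two-sided), adjusted by Benjamini-Hochberg over 31042 probe sets at 0.05, and the code was tested on simulated data. Members and lists were chosen with earlier results of these data known, and the members were not tested. Named genes were all members, up to 6 genes of each list past the threshold (or, with none past it, the 2 of smallest p), the 3 nearest profiles of Fabp4 and of Fabp5, and Creb3l1. Other genes named beside them, such as Dgat1, Crabp2, Cebpd, Ppard and those below background, were chosen after their values were seen. Alternatives were quantile normalisation, median centring, leaving out dim probe sets, a mean-variance trend, leaving out each array, and the mean of a gene's probe sets.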

Additional observations from a re-analysis of the deposited data

How the results depend on the processing

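No paired analysis was possible because the labels give no replicate numbers, and those used here follow sample order within a group. Of the 11 differences of the carriers, Pparg, Plin2, Cd36 and Lpl, 0 moved by more than the spread between replicates. The settings were quantile normalisation, median centring, the mean of probe sets and leaving out any 1 array. Leaving out 1 of 3 arrays cannot move a group's mean by as much as that group's SD. No stability is therefore read from the count for that setting. For Cd36 in particular the count does not show a stable difference. Untransfected replicate 2, at 5.00 against 3.46 and 3.24, widened its spread, and without that array the difference went from -1.02 to -0.47. The counts over all probe sets were 28 to 479 higher and 116 to 756 lower with 1 array left out, the highest of each without CREB3L1 replicate 3, and 79 higher with a mean-variance trend. The lipid binding relatives had 0 to 1 higher and 0 to 1 lower with 1 array left out. With dim probe sets left out only 2 remained, Rbp2 (-1.57) and Crabp2 (0.33), with a median of -0.62. The receptor and coregulator list had 0 to 1 higher and 0 to 1 lower with 1 array left out. Its number lower was 0 with the mean of probe sets and 0 with a mean-variance trend, and its median -0.15 without dim probe sets and -0.0011 with quantile normalisation. The entry and activation list had 0 to 1 higher with 1 array left out. It had 0 higher without dim probe sets, 0 with the mean of probe sets, 0 with a mean-variance trend and 0 with median centring, and a median of 0.04 without dim probe sets. The lipase list's median was -0.039 to 0.0062 with 1 array left out and -0.11 without dim probe sets. The droplet list had 2 to 5 lower and a median of -0.049 to -0.0089 with 1 array left out, and medians of -0.21 without dim probe sets and -0.014 with median centring. The oxidation list had 0 to 5 lower and a median of -0.30 to -0.25 with 1 array left out, -0.47 without dim probe sets and -0.25 with the mean of probe sets. The neighbours had 0 to 1 lower and a median of -0.025 to 0.025 with 1 array left out. Leaving out dim probe sets removes genes from each list, so those medians cover fewer genes, 16 for oxidation and 13 for droplets. In that setting the median was 0.0056 over all genes and 0.0164 for the neighbours. The cause of the shifts between settings was not tested. Calls that rest on values below background, those of Cebpd and Ucp2 without CREB3L1 replicate 3, are limited by the signal and are not read as a change in transcript level.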
